A study of Mus musculus with 2 samples.

Results

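The epidermal growth factor receptor (EGFR) and its relatives form a family of receptor tyrosine kinases that keratinocytes use to sense a set of related ligands. The genes described here are 3 receptors of this family (Egfr, Erbb2 and Erbb3), 6 ligands (Epgn, Areg, Hbegf, Ereg, Btc and Tgfa) and Errfi1, which encodes a cytoplasmic inhibitor that binds the activated receptors. They were taken by symbol from the gene table and all 10 were found among its 31053 features.

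Single cells were isolated from the dorsal skin of a control animal and a miR-205 inducible animal on postnatal day 53, and each animal gave 1 10x library. The inducible mouse carried a pTRE2-miR-205 transgene that responds to doxycycline through a reverse transactivator under the keratin 14 promoter, so that induction is limited to cells in which that promoter is active, and it received doxycycline chow for 4 days from postnatal day 49. Both mice carried a K14-H2BGFP allele and were matched for sex, and the labels give the strain as C57BL/6 while the methods describe transgenic founders on FVB. The treatment label calls the control untreated, whereas the extraction text has both mice on doxycycline, so the feeding of the control was not settled here. Live cells of the epidermis, the hair follicle and the dermis were mixed 3 to 5 to 2 by sorting, which means that the share of each cell type partly reflects the sort. The control library held 4545 barcodes and 55465594 unique molecular identifiers (UMIs, 1 per captured RNA molecule), the induced library 4264 barcodes and 49733560 UMIs, and 3936 and 3628 cells were kept. The libraries had 11 barcode sequences in common, of which 5 were kept in both. Mature miR-205 itself was not measured by these libraries.

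In background, EGFR ligands are made as membrane-anchored precursors that metalloproteases release, and they bind EGFR or its relative ErbB4. ErbB2 binds no ligand and acts as a partner of the other receptors, and ErbB3, which binds neuregulins, has little kinase activity of its own and signals through its partners. Ligand binding feeds the RAS and ERK kinase cascade and the PI3K pathway, and in skin this signalling is known to sustain basal keratinocyte growth and to hold the hair follicle to its normal cycle. In the mouse genome (GRCm38.p6, RefSeq), Epgn, Ereg, Areg and Btc lie side by side at chr5:91027517-91402994, a stretch of 375 kb in which they were the only 4 protein-coding genes among 7 annotated genes. The other members on chromosomes 4, 6, 10 and 11 are dispersed: Errfi1 lies at chr4:150853796-150868889, Tgfa at chr6:86195038-86275744, Erbb3 at chr10:128567523-128589635, Egfr at chr11:16752203-16913907 and Erbb2 at chr11:98412484-98437716.

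Because miR-205 was the induced agent, its mature sequence and the places where its seed could pair with the members' 3′ untranslated regions (UTRs) are shown before the expression values. The mature strand, encoded at chr1:193507503-193507524 on the minus strand, has 22 bases, and its seed (bases 2 to 8) is in capitals.
mmu-miR-205-5p: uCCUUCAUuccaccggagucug

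The longest annotated 3′ UTR of each member was searched on the transcript strand for ATGAAGG, the complement of the seed, and for TGAAGGA, the complement of bases 2 to 7 followed by an A. These words overlap by 6 letters, and a UTR holding both in one run carries an 8-base match. ATGAAGG was present in 10.3% of the 20007 genes with a 3′ UTR, and either word in 18.96%. Erbb3, Ereg, Tgfa and Errfi1 held matches, given here in DNA letters with the match in capitals and the bases before it in lower case, numbered from the first base of the UTR.
Erbb3, bases 268 to 275 of 1845: agactccctggagatATGAAGGA
Tgfa, bases 919 to 925 of 3202: ctgtgagccaaatccATGAAGGg
Errfi1, bases 1238 to 1244 of 1390: tttagtatgaactaaATGAAGGt
Ereg, bases 801 to 807 of 3504: tttatagggaatttacTGAAGGA
Ereg, bases 1880 to 1886 of 3504: aaaggacaaaggggaATGAAGGt
Ereg, bases 1931 to 1937 of 3504: tgccatttgatttggcTGAAGGA
Ereg, bases 3405 to 3411 of 3504: atgtaccttgacatagTGAAGGA

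Erbb3 had the only 8-base match among the members, and Ereg the most matches. Neither word was present in the annotated UTRs of Egfr, Erbb2, Epgn, Areg, Hbegf and Btc. Longer UTRs hold such words more often: among UTRs of similar length, ATGAAGG was present in 38.8% for Egfr, 26.5% for Ereg, 10.4% for Epgn and 1.93% for Areg. A match of letters is a description of the sequence only.

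Cells were clustered without the 10 members and 59 other pathway genes, so that the levels below did not set the clusters. Of 25 clusters, 21 populations had at least 20 cells in each library. Names ending in "-like" rest on marker genes, and clusters whose leading genes did not settle a name are given by number. Antigen-presenting-like cells pooled cluster 17, with Cd207 among its leading genes (52 control and 46 induced cells), and cluster 20, with Lyz2 and Mrc1 (28 and 33 cells). The populations are interfollicular epidermis (IFE) basal-like and suprabasal-like keratinocytes, cycling-like cells, hair follicle stem cell (HF-SC)-like, inner bulge-like, upper hair follicle (HF)-like and sebaceous gland-like cells, dermal papilla-like and dermal fibroblast-like cells, antigen-presenting-like, T cell-like and melanocyte-like cells. Of the numbered clusters, cluster 7 had the highest hair germ marker score and was led by Lgr5 together with Tagln and Acta2, cluster 6 by Flg, Lor and Lypd5, cluster 5 by Krt24 and Krt6a, cluster 8 by Pthlh, cluster 1 by Gjb2 and Ccl2, cluster 2 by Itih5 and Plk2, cluster 12 by Cfap57 and Hs3st6, cluster 15 by Sostdc1 and Socs3, and cluster 19 by Scd3 and Awat1. The hair germ score was 2.51 in cluster 7 and 2.18 in HF-SC-like cells, which had 6 HF-SC and 4 hair germ markers raised. Cluster 5 also had 6 HF-SC markers raised, and inner bulge-like cells had 5 HF-SC markers raised beside 4 inner bulge markers. Of the cells classed as HF-SC-like by UMI gates, 24.38% and 30.03% (control and induced) lay in the HF-SC-like population. Comparisons of HF-SC-like cells with cluster 7 or with inner bulge-like cells are thus between clusters and not between settled cell types.

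Levels are given as CPM, the UMIs of a gene per 1000000 UMIs of its population, and are compared within a gene across populations and libraries and not between genes. A difference between the libraries is given as the log2 ratio of CPM, induced over control, with a 95% interval from the counts. It is called lower or higher when it passed 1.5-fold, its interval left out 0 and the gene had at least 20 UMIs over both libraries. With 1 library per group there is no replicate check: intervals cover counting error only, a call compares these libraries and not the conditions, and no p-value can be given.

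Over the 12 named populations and cluster 7, 74 of 130 member and population pairs had enough UMIs. Of these, 15 (20.3%) were called lower in the induced library and 5 (6.76%) higher. Over all genes in the same 13 populations, 4.53% of tested pairs were called lower and 5.64% higher. Over the 8 other clusters, 7 of 63 member pairs (11.1%) were called lower and 5 (7.94%) higher, beside 3.7% and 4.43% of all pairs. The members therefore stood above the background mostly in the lower direction, and Epgn alone gave 5 of the 15 lower calls. Because the members were chosen with earlier results of these data known, this excess is a description only. Several calls rested on few UMIs or on few cells, and these are named with the genes.

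**Figure D1:**
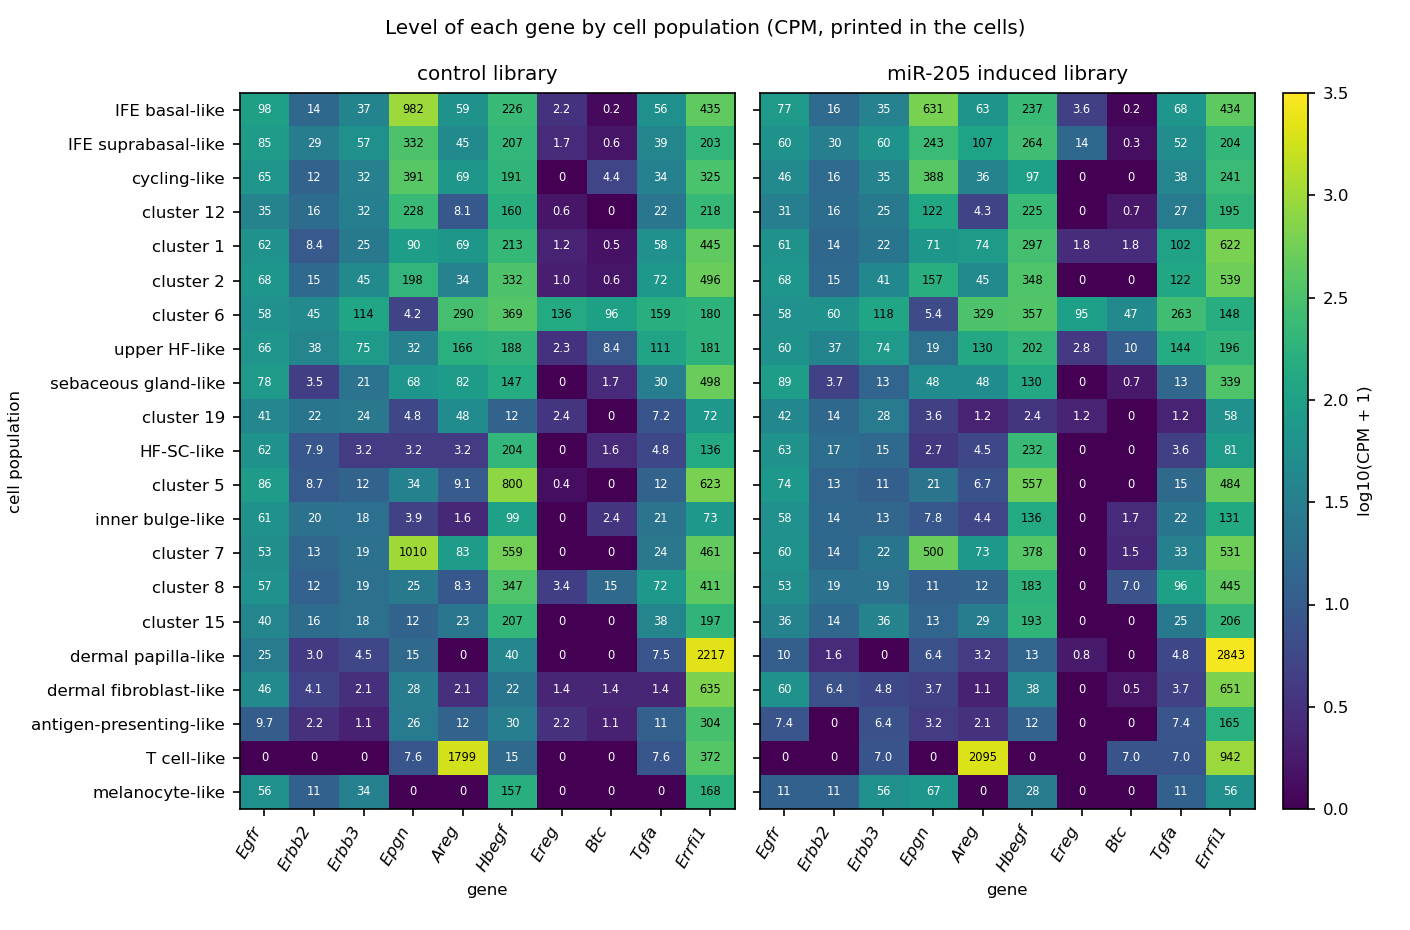
Level of each gene (columns) in each of the 21 cell populations (rows) in the control library (left) and the miR-205 induced library (right); the number in each cell is the CPM and the colour is log10(CPM + 1). The receptors were spread over most keratinocyte populations, whereas Epgn peaked in IFE basal-like cells and cluster 7, Areg in T cell-like cells, Ereg and Btc in cluster 6 and Errfi1 in dermal papilla-like cells.

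Among the receptors, Egfr, which binds all 6 ligands, had the flattest distribution. In the control library it was highest in IFE basal-like cells at 98.1 CPM (interval 91.9 to 104.6), which was 1.68-fold above the median population. The next populations, cluster 5 at 86.0 CPM and IFE suprabasal-like cells at 85.0 CPM, had intervals that overlapped their neighbours. HF-SC-like cells had 61.8 CPM and cluster 7 had 52.9 CPM. Dermal papilla-like cells had 25.5 CPM and antigen-presenting-like cells 9.69 CPM. No Egfr UMI was found in the 29 and 28 T cell-like cells, which allows up to 22.8 and 21.1 CPM.

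In the induced library, Egfr was highest in sebaceous gland-like cells at 89.3 CPM, with an interval that overlapped that of IFE basal-like cells. IFE basal-like cells had 77.3 CPM against 98.1 CPM in the control. Their log2 ratio of -0.34 (-0.51 to -0.18) did not pass 1.5-fold. To compare shares at equal depth, each cell was thinned to 5000 UMIs, and the share of IFE basal-like cells with an Egfr UMI was then 35.4% in the control and 28.0% in the induced library. The share was 6.76% and 4.00% in antigen-presenting-like cells, which are not epithelial, at median depths of 9626 and 10678 UMIs before thinning against 16583 and 17405 in IFE basal-like cells. The ratio lay in the same direction in IFE suprabasal-like cells (85.0 and 60.4 CPM, log2 ratio -0.49) and cycling-like cells (65.3 and 46.3 CPM, log2 ratio -0.49), neither of them past 1.5-fold. In HF-SC-like cells the libraries held 61.8 and 62.6 CPM, a log2 ratio of 0.01 (-0.57 to 0.62). That interval reached past 1.5-fold upward, so a change of that size in HF-SC-like cells was not detectable at this depth. The 1 Egfr call, in dermal papilla-like cells, rested on 17 control and 13 induced UMIs (25.5 and 10.4 CPM, log2 ratio -1.27), and leaving out the 5 cells richest in Egfr per library moved it to -0.50.

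Erbb2 and Erbb3 had a second pattern, with their highest levels in cluster 6 and upper HF-like cells. Cluster 6, led by Flg and Lor, had 5 upper HF and 4 IFE suprabasal markers raised. Its upper HF markers summed to 106154 and 108905 CPM, against 34759 and 35981 CPM in upper HF-like cells. Erbb2, the receptor without a ligand, was highest in cluster 6 (44.6 CPM control, 59.7 CPM induced) and upper HF-like cells (38.3 and 36.7 CPM). Erbb3 followed the same order, with 114 and 118 CPM in cluster 6, 75.3 and 74.1 CPM in upper HF-like cells and 56.6 and 60.4 CPM in IFE suprabasal-like cells. Cluster 6 stood above upper HF-like cells beyond counting error for Erbb3 in both libraries and for Erbb2 in the induced library only. IFE basal-like cells had less of both, with 14.2 and 15.6 CPM of Erbb2 and 37.1 and 34.6 CPM of Erbb3.

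Neither receptor was called in any of the 13 populations, each with 7 tested. Erbb2 in cluster 1 was called higher (8.40 and 14.0 CPM, log2 ratio 0.73). Erbb3 in cluster 15 was called higher (18.4 and 35.6 CPM, log2 ratio 0.94, 0.03 to 1.91) on 17 and 28 UMIs, and this ratio was -0.072 once the cells with the highest doublet scores were removed. Erbb3 had a log2 ratio of 0.04 (-0.16 to 0.24) in cluster 6, where it was highest. In HF-SC-like cells Erbb3 had 2 UMIs in 81 control cells and 16 in 126 induced cells, too few to test. Melanocyte-like cells held 3 and 10 Erbb3 UMIs, also too few.

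Epgn encodes epigen, a broad-acting EGFR ligand of low affinity. It was the member called lower in the most populations. In the control library it was highest in cluster 7 at 1010 CPM (970 to 1052) and IFE basal-like cells at 981.6 CPM (961.7 to 1002), which did not differ beyond counting error, ahead of cycling-like cells at 391 CPM and IFE suprabasal-like cells at 332 CPM. IFE basal-like cells held 56.8% of all control Epgn UMIs while making up 14.4% of the cells. The leading genes of IFE basal-like cells included the marker Igfbp3. Cluster 12 had a similar control sum of the 7 IFE basal markers (31111 CPM, against 30760 CPM in IFE basal-like cells). It held 2.24% of control Epgn UMIs and 3.46% of the cells, so high Epgn was not shared by all cells rich in these markers. HF-SC-like cells had 3.17 CPM, from 2 UMIs in 81 cells, and inner bulge-like cells 3.92 CPM, from 5 UMIs. Cluster 7 thus stood far above the HF-SC-like and inner bulge-like cells for this gene.

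In the induced library Epgn was 500.5 CPM in cluster 7, a log2 ratio of -1.01 (-1.11 to -0.92), from 2387 control and 1362 induced UMIs. In IFE basal-like cells it was 631 CPM, a log2 ratio of -0.64 (-0.69 to -0.58), from 9309 and 3886 UMIs. Both were called lower, beside 5.62% of all genes tested in cluster 7 and 3.08% in IFE basal-like cells, and both kept their size without the 5 richest cells (-1.07 and -0.67). The log2 ratio of Epgn ranged from -1.10 to -0.88 in cluster 7 and from -0.67 to -0.57 in IFE basal-like cells over the alternatives tried. The call in IFE basal-like cells ended with members and pathway genes among the variable genes (-0.57) and with no upper limit on genes (-0.58), both just under 1.5-fold. The share of thinned cells with an Epgn UMI was 46.5% and 40.1% in cluster 7 and 67.4% and 61.1% in IFE basal-like cells, so these shares, whose intervals overlapped, moved less than the levels. In antigen-presenting-like cells the share was 4.05% and 0%, the latter 0 of 75 cells.

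Epgn was also called lower in cluster 12 (228 and 122 CPM, log2 ratio -0.90), upper HF-like cells (32.3 and 18.7 CPM, log2 ratio -0.79) and cluster 5 (33.8 and 21.0 CPM, log2 ratio -0.68). In upper HF-like cells the ratio was -0.55 (-1.35 to 0.20) without the 5 richest cells. In cycling-like cells it was 391 and 388 CPM, a log2 ratio of -0.01 (-0.15 to 0.13), but 61.9% of the induced UMIs lay in 5 cells, 277 of them in 1, and the ratio was -0.57 (-0.79 to -0.37) without the 5 richest cells per library. IFE suprabasal-like cells were at 332 and 243 CPM (log2 ratio -0.45, -0.59 to -0.31), with 58.3% of the induced UMIs in 5 cells. Without the 5 richest cells per library that ratio was -1.08 (-1.28 to -0.88) on 1057 UMIs, past the size needed for a call. Of the 9 populations tested among the 13, 8 had an Epgn ratio below 0.

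Epgn calls in cells that are not keratinocytes rested on very few cells. In dermal fibroblast-like cells 41 control and 7 induced UMIs gave a log2 ratio of -2.83, but 92.7% of the control UMIs came from 5 cells and 3 UMIs were left without them. In antigen-presenting-like cells 24 and 3 UMIs gave -2.83, with 91.7% of the control UMIs in 5 cells. The 7 IFE basal markers, all with UMIs in both populations, summed to 2867 and 877 CPM in antigen-presenting-like cells and to 2942 and 2462 CPM in dermal fibroblast-like cells, against 30760 and 29142 CPM in IFE basal-like cells; their part in the result was not tested. Epgn in cluster 8 was called lower on 36 and 22 UMIs (log2 ratio -1.17), and this reversed to 0.72 at a finer clustering. Over all kept cells Epgn was 324 and 174 CPM, a log2 ratio of -0.90, where the level within populations and the smaller share of IFE basal-like cells (14.4% and 9.79%) both enter.

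**Figure D2:**
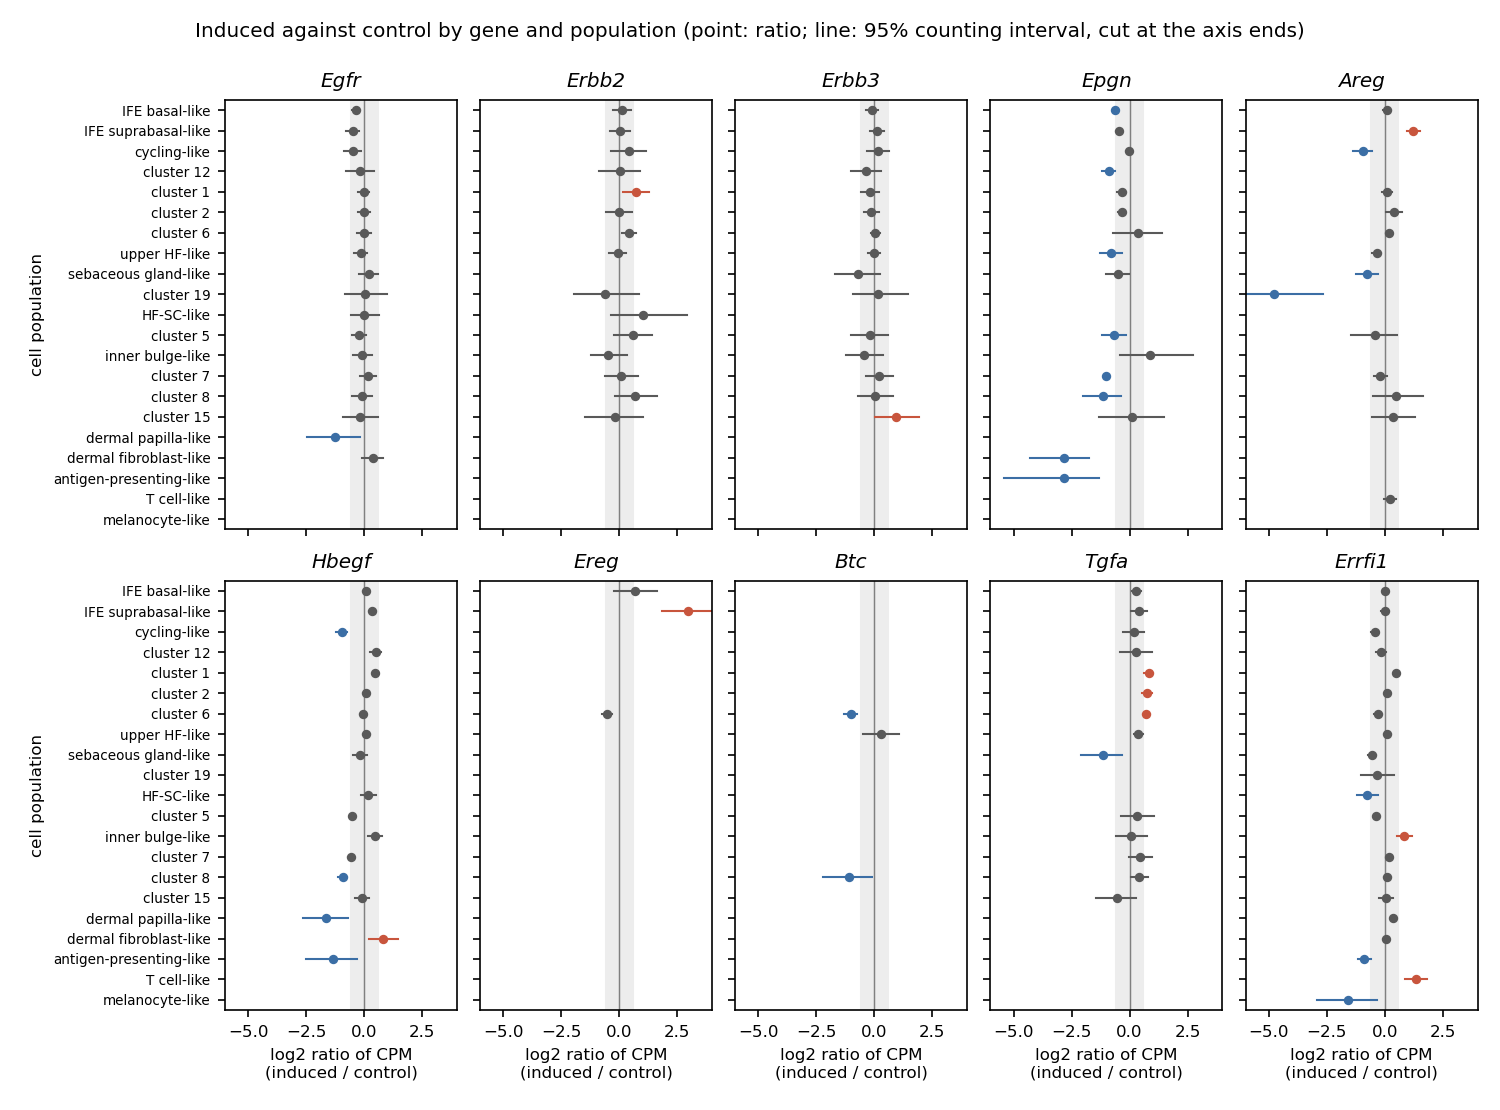
Log2 ratio of CPM, induced over control (x axis), for each gene (panels) in each population with at least 20 UMIs of it (rows); points are ratios, lines are 95% counting intervals cut at the axis ends, the grey band marks changes under 1.5-fold, blue is called lower and orange called higher. Epgn lay left of 0 in most populations and Tgfa right of 0 in most, while Hbegf and Errfi1 had calls on both sides.

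Tgfa, encoding transforming growth factor alpha, a classic keratinocyte ligand, moved the other way. It was highest in cluster 6 (159 CPM control, 263 CPM induced), upper HF-like cells (111 and 144 CPM) and cluster 2 (71.8 and 122 CPM). It was called higher in cluster 6 (log2 ratio 0.73, 0.58 to 0.88), cluster 2 (log2 ratio 0.76) and cluster 1 (57.8 and 102 CPM, log2 ratio 0.82). These 3 calls rested on 602 and 882 UMIs in cluster 6, 375 and 350 in cluster 2 and 351 and 459 in cluster 1, and stayed at 0.75, 0.73 and 0.77 without the 5 richest cells.

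Among the 13 populations Tgfa was called higher in none of the 7 tested, although 6 had a ratio above 0, with 0.38 (0.18 to 0.58) in upper HF-like cells and 0.28 (0.10 to 0.47) in IFE basal-like cells. The exception was sebaceous gland-like cells, where it was called lower (30.4 and 13.4 CPM, log2 ratio -1.16) on 35 and 18 UMIs. Without the 5 richest cells that ratio was -1.06 with an interval that included 0 (-2.45 to 0.17), and it was -0.41 with no upper limit on genes. HF-SC-like cells held 3 and 4 Tgfa UMIs. Tgfa was the ligand called higher in the most clusters. ATGAAGG, which its UTR holds, was present in 25.6% of UTRs of similar length, and the part of miR-205 in the Tgfa ratios was not tested.

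Hbegf encodes heparin-binding EGF-like growth factor, a ligand known for its early response to wounding and stress. In the control library it was highest in cluster 5 at 800 CPM, then cluster 7 at 559 CPM, cluster 6 at 369 CPM and cluster 8 at 347 CPM. HF-SC-like cells held 204 CPM and inner bulge-like cells 98.8 CPM. In the induced library it was 557 CPM in cluster 5 (log2 ratio -0.52), 378 CPM in cluster 7 (log2 ratio -0.56) and 183 CPM in cluster 8 (log2 ratio -0.93), and of these the last was called lower. That call ended at -0.0012 without the highest-scoring doublets and at -0.39 with mitochondrial UMIs under 5%. Cluster 6 had 357 CPM (log2 ratio -0.05, -0.16 to 0.07). The induced level in HF-SC-like cells was 232 CPM, a log2 ratio of 0.18 (-0.13 to 0.50), and in IFE basal-like cells the levels were 226 and 237 CPM, a log2 ratio of 0.07 (-0.03 to 0.16).

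Among the 13 populations, the Hbegf call on the most UMIs was in cycling-like cells, with 191 and 97.4 CPM from 563 and 179 UMIs (log2 ratio -0.97, -1.23 to -0.73), which stayed at -1.04 without the 5 richest cells. Dermal papilla-like cells (27 and 16 UMIs, log2 ratio -1.64) and antigen-presenting-like cells (28 and 11 UMIs, log2 ratio -1.33) were called lower on few UMIs. Without the 5 richest cells their intervals included 0. Dermal fibroblast-like cells were called higher (32 and 72 UMIs, 21.9 and 38.3 CPM, log2 ratio 0.80), and this was 1.10 without the 5 richest cells but 0.53 with no upper limit on genes. Hbegf is an early response gene, and the 12 genes of an immediate early list, which dissociation of tissue also raises, were summed beside it. This list also holds the heat shock chaperone genes Hspa1a and Hspa1b. Their sum was 6816 and 10273 CPM in cycling-like cells, 9012 and 13948 CPM in cluster 7, 8365 and 11587 CPM in cluster 8 and 12067 and 9996 CPM in dermal papilla-like cells, so Hbegf and this sum moved apart in the first 3 and together in the last; the part of dissociation was not tested.

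Areg encodes amphiregulin, a ligand made by epithelium and by lymphocytes that aid tissue repair. Among the 21 populations its highest level was in T cell-like cells, with 1799 CPM (1577 to 2043) in the control and 2095 CPM (1864 to 2347) in the induced library. This was 52.5-fold and 71.7-fold above the median population, and it came from 29 and 28 cells, of which 65.5% and 85.7% had an Areg UMI. The leading genes of these cells included Trdc and Tcrg-C1, which encode gamma delta T cell receptor chains. Cluster 18, led by Gzmb and Icos, also had 6 T cell markers raised. With 16 control and 77 induced cells it was too small in the control to be among the populations. The Areg level thus describes the cluster with Trdc and not all T cells. The Egfr UMIs of T cell-like cells were 0 in both libraries. Among keratinocytes Areg was highest in cluster 6 (290 and 329 CPM) and upper HF-like cells (166 and 130 CPM), and HF-SC-like cells held 2 and 5 UMIs.

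The Areg ratio in T cell-like cells was 0.22 (-0.03 to 0.47) and not called, whereas without the 5 richest cells it was 0.65 (0.23 to 1.08) on 201 UMIs, past the size needed for a call. The uncalled ratio in cluster 7 instead fell from -0.19 to -1.67 (-2.65 to -0.82) on 57 UMIs. That in IFE basal-like cells fell from 0.10 to -0.45 (-0.78 to -0.13) on 363 UMIs. There, 5 cells held 55.9% of the control and 70.3% of the induced Areg UMIs. In cycling-like cells Areg was called lower (69.4 and 35.9 CPM, log2 ratio -0.94), and this was -1.27 without the 5 richest cells. The ratio was -0.34 with mitochondrial UMIs under 5% and -0.43 without the highest-scoring doublets, where the call ended. The 6 T cell markers summed to 30.3 and 1.09 CPM in cycling-like cells, and their part in the Areg value was not tested. In sebaceous gland-like cells it was called lower (81.5 and 47.6 CPM, log2 ratio -0.77), with 12 UMIs left in all without the 5 richest cells. In IFE suprabasal-like cells it was called higher (45.5 and 107 CPM, log2 ratio 1.23), but 74.6% of the induced UMIs lay in 5 cells and the ratio was -0.021 (-0.47 to 0.42) without the 5 richest cells per library. In cluster 19 all 20 control UMIs came from 1 cell and the induced library had 1 UMI, so that its ratio of -4.77 describes a single cell. Over all kept cells the levels were 75.9 and 76.1 CPM.

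**Figure D3:**
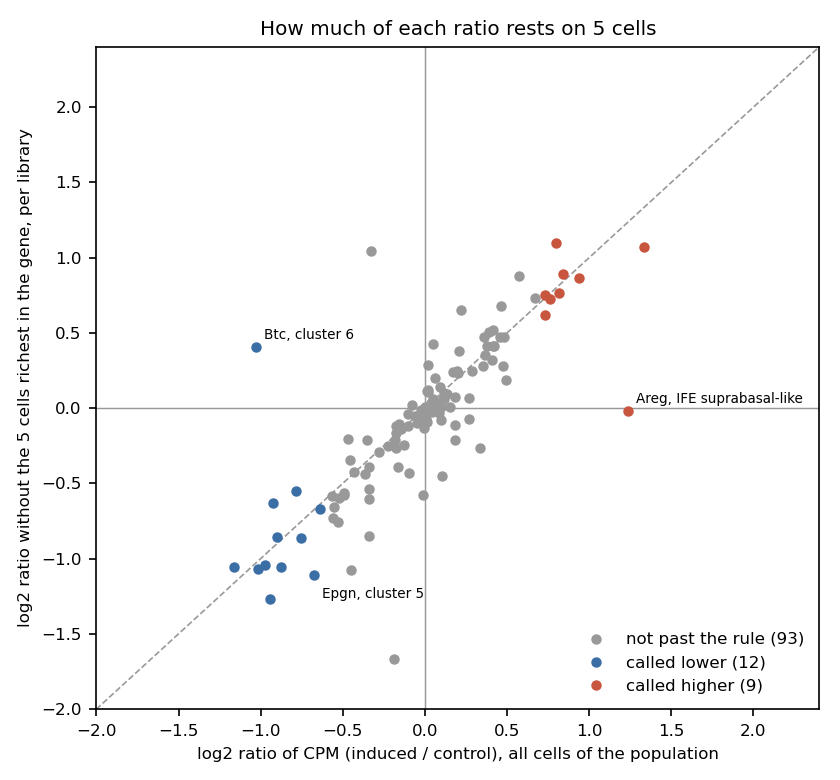
Log2 ratio of CPM, induced over control, from all cells of a population (x axis) against the same ratio after leaving out, in each library, the 5 cells with the most UMIs of the gene (y axis); each point is a member in a population, for the 114 of 137 pairs with at least 20 UMIs left. Most points lie near the diagonal, whereas Areg in IFE suprabasal-like cells went from 1.23 to -0.021 and Btc in cluster 6 from -1.03 to 0.41. Epgn in sebaceous gland-like cells, which went from -0.50 to -2.50 on 31 UMIs, lies outside the axes and is not visible.

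Ereg and Btc, encoding epiregulin and betacellulin, were concentrated in cluster 6. This population was led by the cornification genes Flg and Lor and also had the highest sum of upper HF markers (106154 and 108905 CPM). Ereg was 136.5 CPM in the control and 94.7 CPM in the induced library there (517 and 317 UMIs, log2 ratio -0.53, -0.73 to -0.32), below 1.5-fold. Cluster 6 held 89.8% and 79.2% of all Ereg UMIs, and no Ereg UMI was found in cluster 7, HF-SC-like, cycling-like or sebaceous gland-like cells in either library. Even in cluster 6, 17.1% and 14.1% of thinned cells had an Ereg UMI, so the level was carried by a minority of cells. The Ereg call in IFE suprabasal-like cells (6 and 41 UMIs, log2 ratio 2.97) rested on 5 cells that held 97.6% of the induced UMIs, 26 of them in 1 cell.

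Btc was 95.8 CPM in the control and 46.9 CPM in the induced library in cluster 6 (363 and 157 UMIs, log2 ratio -1.03) and was called lower there. The cluster held 81.4% and 68.9% of all Btc UMIs. Of the control UMIs, 73.6% came from 5 cells, and without the 5 richest cells per library the ratio was 0.41. In cluster 8 it was called lower on 22 and 14 UMIs (log2 ratio -1.10). In upper HF-like cells Btc had 8.36 and 10.1 CPM (log2 ratio 0.27, -0.49 to 1.04). The direction of the Btc difference in cluster 6 thus depended on these few cells.

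Errfi1, whose protein blocks the kinase domain of the receptors and is itself induced by their signalling, had its highest level outside the epithelium. Dermal papilla-like cells held 2217 CPM (2106 to 2333) in the control and 2843 CPM (2750 to 2938) in the induced library, a log2 ratio of 0.36 (0.27 to 0.45), below 1.5-fold. They made up 3.61% and 6.12% of the cells, and over all kept cells Errfi1 was 394 and 424 CPM. In the control library dermal fibroblast-like cells (635 CPM) and cluster 5 (623 CPM) followed, and in the induced library T cell-like cells (942 CPM) and dermal fibroblast-like cells (651 CPM). IFE basal-like cells had 435 and 434 CPM, a log2 ratio of -0.01 (-0.08 to 0.06), which leaves out a change as large as that of Epgn in the same cells.

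Errfi1 was tested in all 13 populations and had 3 lower and 2 higher calls. In HF-SC-like cells it was called lower (136 and 80.7 CPM, 86 and 89 UMIs, log2 ratio -0.76, -1.20 to -0.31), beside 3.4% of all genes called lower there and 4.79% called higher, and it was the only member called in this population. In inner bulge-like cells it was called higher (72.9 and 131 CPM, log2 ratio 0.84, 0.52 to 1.19). HF-SC-like and inner bulge-like cells, which both had HF-SC markers raised, therefore had Errfi1 ratios of opposite sign, also without the 5 richest cells (-0.86 and 0.89). The HF-SC-like ratio ranged from -1.11 to -0.47 over the alternatives, and it was under 1.5-fold with classes from UMI gates (-0.47), as a mean over cells (-0.55) and with no upper limit on genes (-0.58). Cluster 5, led by Krt24, had a log2 ratio of -0.36 (-0.47 to -0.25) from 1716 and 1153 UMIs, which was not called. T cell-like cells (372 and 942 CPM, 49 and 134 UMIs, log2 ratio 1.33) were called higher. Antigen-presenting-like cells (304 and 165 CPM, log2 ratio -0.87) and melanocyte-like cells (15 and 10 UMIs, log2 ratio -1.57) were called lower. The summed immediate early list, with its heat shock genes, was 33299 and 29850 CPM in HF-SC-like cells and 5946 and 8277 CPM in inner bulge-like cells. It was 5563 and 6545 CPM in T cell-like cells and 4092 and 4288 CPM in antigen-presenting-like cells. The part of these genes in the Errfi1 values was not tested.

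Receptor and ligand transcripts were found in the same cells in most keratinocyte populations. Whether these joint shares exceeded those that separate detection of each transcript would give was not tested. At 5000 UMIs per cell, 88.0% of control and 89.4% of induced IFE basal-like cells had a UMI of any of the 6 ligands, and 31.5% and 26.0% had a ligand and an Egfr UMI. In cluster 7 any ligand was found in 86.0% and 74.4% of cells, Egfr in 17.5% and 27.5%, and both in 14.5% and 20.3%. In HF-SC-like cells any ligand was found in 43.5% and 30.8%, and both in 10.1% and 6.67%. In inner bulge-like cells any ligand was found in 31.1% and 44.2%, and both in 6.62% and 12.2%. The HF-SC-like and inner bulge-like shares thus moved in opposite directions, with intervals for both transcripts together that overlapped between libraries in each population. Antigen-presenting-like cells had any ligand in 18.9% and 10.7% and both in 2.70% and 1.33%, and T cell-like cells had no Egfr at all among the 10 and 16 cells deep enough.

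**Figure D4:**
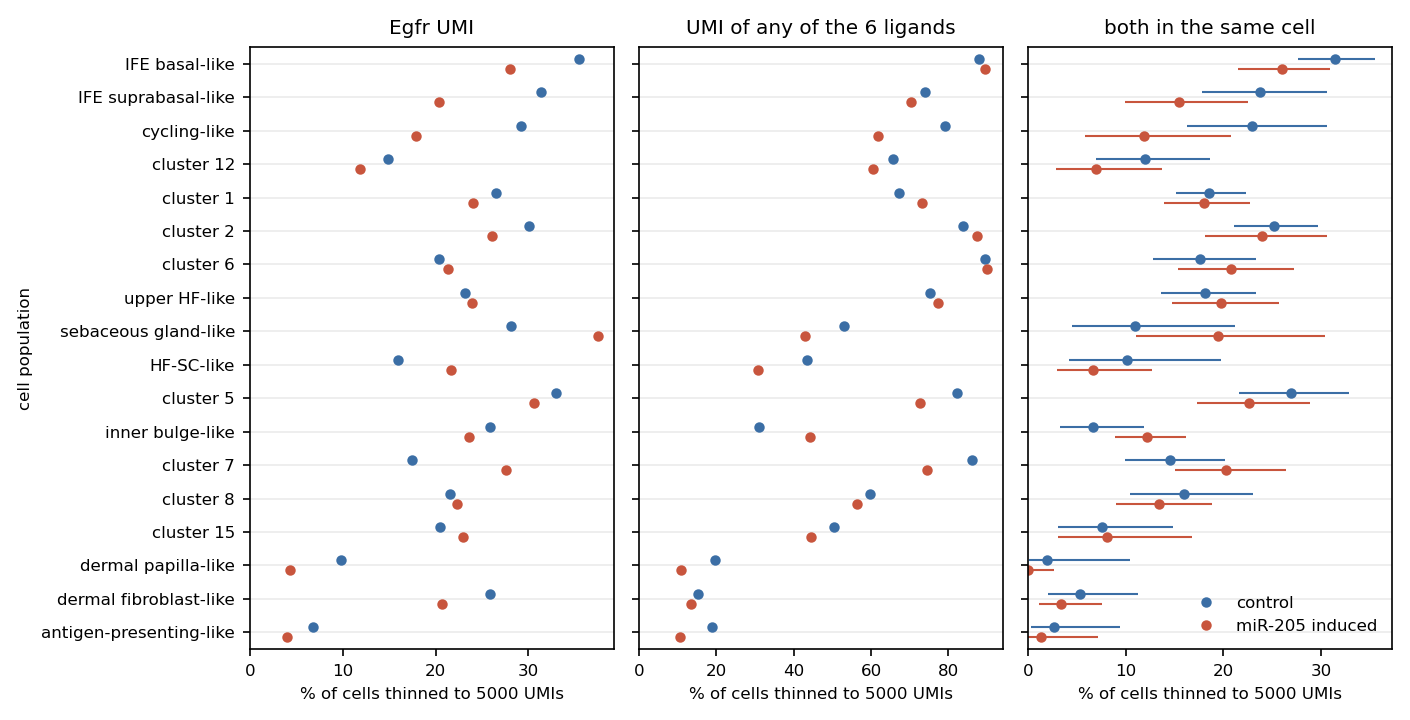
Share of cells, thinned to 5000 UMIs each, with an Egfr UMI (left), with a UMI of any of the 6 ligands (middle) and with both (right, lines are 95% exact binomial intervals), in the control (blue) and induced (orange) library; 3 populations with fewer than 20 such cells in a library are left out. IFE basal-like cells had both in 31.5% and 26.0% of cells, HF-SC-like cells in 10.1% and 6.67%.

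The other genes of the pathway were read from 6 lists holding 59 genes. Over the 13 populations, 31 of 600 tested pairs (5.17%) were called lower and 50 (8.33%) higher, with the background of 4.53% and 5.64% given above. The adaptor and kinase transducers that carry the signal had 6 lower and 9 higher calls among 233 pairs, with none in either direction among 20 genes in IFE basal-like cells. The proteases and cofactors that release the ligands had 0 lower and 2 higher among 42. Of the other ligands and receptors 7 pairs could be tested, with 1 lower and 1 higher, both Nrg1, which encodes the ErbB3 ligand neuregulin 1: it was lower in cycling-like cells (log2 ratio -1.40, 120 and 28 UMIs) and higher in cluster 7 (log2 ratio 0.91, 71 and 154 UMIs).

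The attenuators, which damp receptor or ERK signalling, had 9 lower and 11 higher calls among 111 pairs, and these split by gene. In HF-SC-like cells, where 3.4% of all genes were called lower, 2 of 9 tested were lower. They were the ERK phosphatase genes Dusp6 (107 and 81 UMIs, log2 ratio -1.20) and Dusp5 (16 and 8 UMIs, log2 ratio -1.76). Errfi1 was also lower there, and the list's median was -0.39 against 0.06 for all genes. Over all 21 populations Dusp6 was called lower in 5 of 19 tested and higher in 0, and Dusp5 lower in 6 of 21 and higher in 1. Of all pairs, 4.53% were lower and 5.64% higher in the 13 populations, and 3.7% and 4.43% in the 8 other clusters. Spry1, a Sprouty gene chosen after its values were seen, was called higher in 8 of 16 tested and lower in 0, with log2 ratios of 1.32 in IFE basal-like cells (22 and 36 UMIs) and 2.25 in cluster 7 (16 and 90 UMIs). Its relative Spry2 was called lower in 6 of 19 and higher in 0. Dusp5, Dusp6 and Spry2 were also named after their values were seen. These genes also report fibroblast growth factor signalling, so the list is not particular to EGFR.

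The ERK response genes had 5 lower and 4 higher calls among 58 pairs, with Etv4 and Etv5 higher in IFE basal-like cells on few UMIs (log2 ratios 1.19 and 0.80) and Phlda1 lower in cycling-like cells (log2 ratio -0.81, 4385 and 1558 UMIs). The immediate early list had 10 lower and 23 higher calls among 149 pairs. It includes the heat shock genes Hspa1a and Hspa1b, called higher in 7 and 6 of 20 populations tested among all 21, and lower in 1 each. In cluster 7, where 9.27% of all genes were called higher, 7 of its 12 genes were, including Fos (log2 ratio 0.94), Atf3 (log2 ratio 0.80), Egr1 (log2 ratio 0.77) and Zfp36 (log2 ratio 0.76). In HF-SC-like cells none was higher and Nr4a1 was lower (log2 ratio -0.68, 791 and 862 UMIs). In IFE basal-like cells, where 5.05% of all genes were called higher, no immediate early gene was called in either direction.

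Across 45 cluster-by-library profiles of log2(CPM + 1), the members fell into several patterns. These correlations are descriptions, since the profiles share 2 libraries and differ in depth. The members were also chosen with earlier results of these data known. The receptors resembled one another, with r of 0.77 for Erbb2 with Erbb3 and for Egfr with Erbb2, and Egfr also resembled Hbegf (0.74). Ereg resembled Btc (0.68), which lies in the same stretch of chromosome 5, while Epgn had r of -0.01 with Ereg and -0.20 with Btc although it lies there too. Among 8865 genes, those most like each member were Cttn for Egfr (0.92), Lrrc8e for Erbb2 (0.86), Sh3yl1 for Erbb3 (0.82), Fam110c for Epgn (0.77), Wwc1 for Areg (0.76), Dennd2c for Hbegf (0.90), Slc25a48 for Tgfa (0.87) and Ywhag for Errfi1 (0.78). The closest to Ereg was Lypd5 (0.88), a leading gene of cluster 6, and the closest to Btc was Cst6 (0.77).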

How the data were processed

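Per the file headers and the submitters' processing notes, the authors made the deposited UMI counts per gene and barcode with Cell Ranger 3.0.1 on mm10; they were read as raw counts. Barcodes with over 200 and under 5000 genes and under 10% mitochondrial UMIs were kept, as in the study. Libraries were integrated and clustered with Seurat 5.3.0 in R 4.3.3 (2000 variable genes without members and pathway genes, 30 dimensions, resolution 0.8). A cluster was named when at least 3 fixed markers were raised 2-fold, at least 1 was among its 10 leading genes and no other class did better; this rule was set after clusters were seen. UMIs were summed per population and library and expressed as CPM with exact Poisson intervals. Log2 ratios used a pseudocount of 0.5 UMIs and exact conditional binomial intervals; shares used exact Clopper-Pearson intervals. PCR duplicates are removed by UMIs, and intervals cover counting error only. Doublets were not removed in the main values, since Scrublet (scanpy 1.11.5) marked 4 and 5 barcodes on its own; 165 and 145 were removed in an alternative. Named genes were the 10 members where they had 20 UMIs, up to 5 called pathway genes with at least 200 UMIs in HF-SC-like cells, cluster 7 and IFE basal-like cells, and the 3 most similar profiles per member, of which the first is given; other pathway genes were named after their values were seen. The members and lists were chosen with earlier results of these data known. Sequences of miR-205 are from RefSeq (GRCm38.p6) and UTRs from GENCODE transcripts annotated on an older build; all 10 members matched.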

Additional observations from a re-analysis of the deposited data

Results flagged for a closer look

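Areg, Hbegf and Errfi1 had calls in both directions among the 13 populations, which marked them for a second look; whether the populations differ was not tested, since each library is 1 mouse. Areg had a log2 ratio, induced over control, of 1.23 in IFE suprabasal-like cells, -0.94 in cycling-like cells and -0.77 in sebaceous gland-like cells. Hbegf had 0.80 in dermal fibroblast-like cells, -1.64 in dermal papilla-like cells, -0.97 in cycling-like cells and -1.33 in antigen-presenting-like cells. Errfi1 had 0.84 in inner bulge-like cells and 1.33 in T cell-like cells, and -0.76 in HF-SC-like cells, -0.87 in antigen-presenting-like cells and -1.57 in melanocyte-like cells. Without the 5 richest cells per library, the higher Areg value and the lower Hbegf values in dermal papilla-like and antigen-presenting-like cells had intervals that included 0, and Areg in sebaceous gland-like cells was left with 12 UMIs.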

How the results depend on the processing

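Each log2 ratio of a member was recomputed under other filters (mitochondrial UMIs under 5%, no upper limit on genes, no highest-scoring doublets), resolution 1.2, members and pathway genes among the variable genes, classes from UMI gates, other scalings, means over cells, and without the 5 richest cells per library. Of 1204 recomputed ratios for 137 values, 1085 stayed inside the counting interval. Reversals were counted for the 32 called ratios only: of their 279 recomputed values, 272 kept their sign and 7 reversed. Uncalled ratios also changed sign, such as Areg in IFE basal-like cells, from 0.10 to -0.45 without the 5 richest cells. The reversals were Erbb3 in cluster 15 (-0.072 without the highest-scoring doublets, -0.17 with members among the variable genes), Epgn in cluster 8 (0.72 at resolution 1.2, 0.62 with members among the variable genes), Areg in IFE suprabasal-like cells (-0.021) and Btc in cluster 6 (0.41) without the 5 richest cells, where those cells held most UMIs, and Areg in cluster 19 (0.34 as a mean over cells). For the others the cause was not tested. At least 100 UMIs left 8 lower member calls of 56 tested, as fewer pairs enter, against 15 of 74; the other alternatives that give calls left 11 to 18 lower and 4 to 7 higher. The pathway lists had 18 lower calls at under 5% mitochondrial UMIs, over 8 populations, and 19 without the 5 richest cells, against 31, and 32 higher calls at 100 UMIs or more, against 50. No scaling moved the median of all genes by 0.1 or more on the log2 scale. UMI gates gave no counts of calls, and means over cells no intervals. No paired analysis was possible because each group has 1 library, and for the same reason no replicate could be left out. Depth limits the rare ligands and the small populations most.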
